A study of Mus musculus with 12 samples.

Results

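NMDA receptors are glutamate-gated ion channels that admit calcium when glutamate is bound and the membrane is already depolarised, and in hippocampus and cortex they are best known for starting lasting changes of synaptic strength. Each channel joins the obligatory subunit GluN1 (gene Grin1), which binds glycine or D-serine, with GluN2 subunits (Grin2a to Grin2d), which bind glutamate and set the kinetics and the block by magnesium, or with GluN3 subunits (Grin3a and Grin3b), which bind glycine and lower calcium entry. GluN2B dominates in the young forebrain and GluN2A joins it as synapses mature.

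Of 6 subunit genes chosen by symbol (Grin1, Grin2a, Grin2b, Grin2c, Grin2d and Grin3a), 5 were the only gene of at least 1 probe set, and they had 11 probe sets of 45037 in all. Grin1 had none in the annotation used here and was not analysed here. Grin2a (chromosome 16, probe set 1421616_at) and Grin2c (chromosome 11, 1449245_at) had 1 probe set each. Grin2b (chromosome 6) had 4, numbered 1 to 4 in the order 1422223_at, 1431700_at, 1442370_at and 1457003_at. Grin2d (chromosome 7) had 2, 1421393_at and 1442328_at, and Grin3a (chromosome 4) had 3, 1436575_at, 1438866_at and 1458378_at. Probe sets differ in how brightly they report an RNA, so every comparison is within a probe set.

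The 12 arrays came from hippocampus and prefrontal cortex of female mice aged 38 to 40 weeks on a C57BL/6 background (back-crossed for 6 generations), with 3 mice of each genotype in the series design. The 4 groups of 3 arrays were APPsα-DM hippocampus, APLP2-KO hippocampus, APPsα-DM cortex and APLP2-KO cortex. APPsα-DM mice (APPα/αAPLP2-/-) carry the edited App allele APPα on both chromosomes and lack APLP2, and APLP2-KO mice (APLP2-/-) lack APLP2 and keep unedited App. The APPα allele is known to yield only APPsα, the part of APP that alpha-secretase sheds. Loss of APLP2, which belongs to the same family as APP, was thus common to all 12 arrays, and no wild type was analysed here. Tissue was analysed whole, so that fewer cells of a type and less RNA per cell cannot be told apart.

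The tissue labels matched the marker genes. The mean signal of 8 hippocampal neuron markers was 9.03 to 9.39 on hippocampus arrays and 6.16 to 6.30 on cortex arrays, in log2 units, and that of 7 cortical neuron markers was 7.40 to 7.97 on hippocampus arrays and 9.12 to 9.45 on cortex arrays. Markers of neighbouring tissue were present as well. The mean of 7 striatal neuron markers was 7.28 to 7.69 on hippocampus arrays and 9.43 to 10.13 on cortex arrays, and that of 7 choroid plexus markers ran from 5.82 to 9.13 on hippocampus arrays and from 4.92 to 8.11 on cortex arrays. The cortex arrays highest in the choroid plexus transcript Ttr were APPsα-DM cortex 2 (14.18) and APLP2-KO cortex 3 (14.03), against 8.20 to 9.42 on the other cortex arrays. What part these neighbouring tissues had in the differences of subunits and of other genes given here was not tested.

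All 11 probe sets lay above the level of genes that are absent from female mice: the brightest of 9 probe sets of Y-linked genes averaged 3.58, and the dimmest subunit probe set, Grin2b probe set 2, averaged 5.30. That level is a low bar, since the array medians were 5.86 to 5.91, and passing it is no test of detection. Their means over 12 arrays fell between the percentiles 41.4 (Grin2b probe set 2) and 90.1 (Grin2b probe set 4) of all probe sets. Grin2a averaged 6.12, at percentile 53.3. The SD within groups was above the median of all probe sets (0.118) for 9 of the 11, at up to 0.232 for Grin2b probe set 4, and below it for Grin2d probe set 2 (0.0763) and Grin3a probe set 2 (0.0995).

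**Figure D1:**
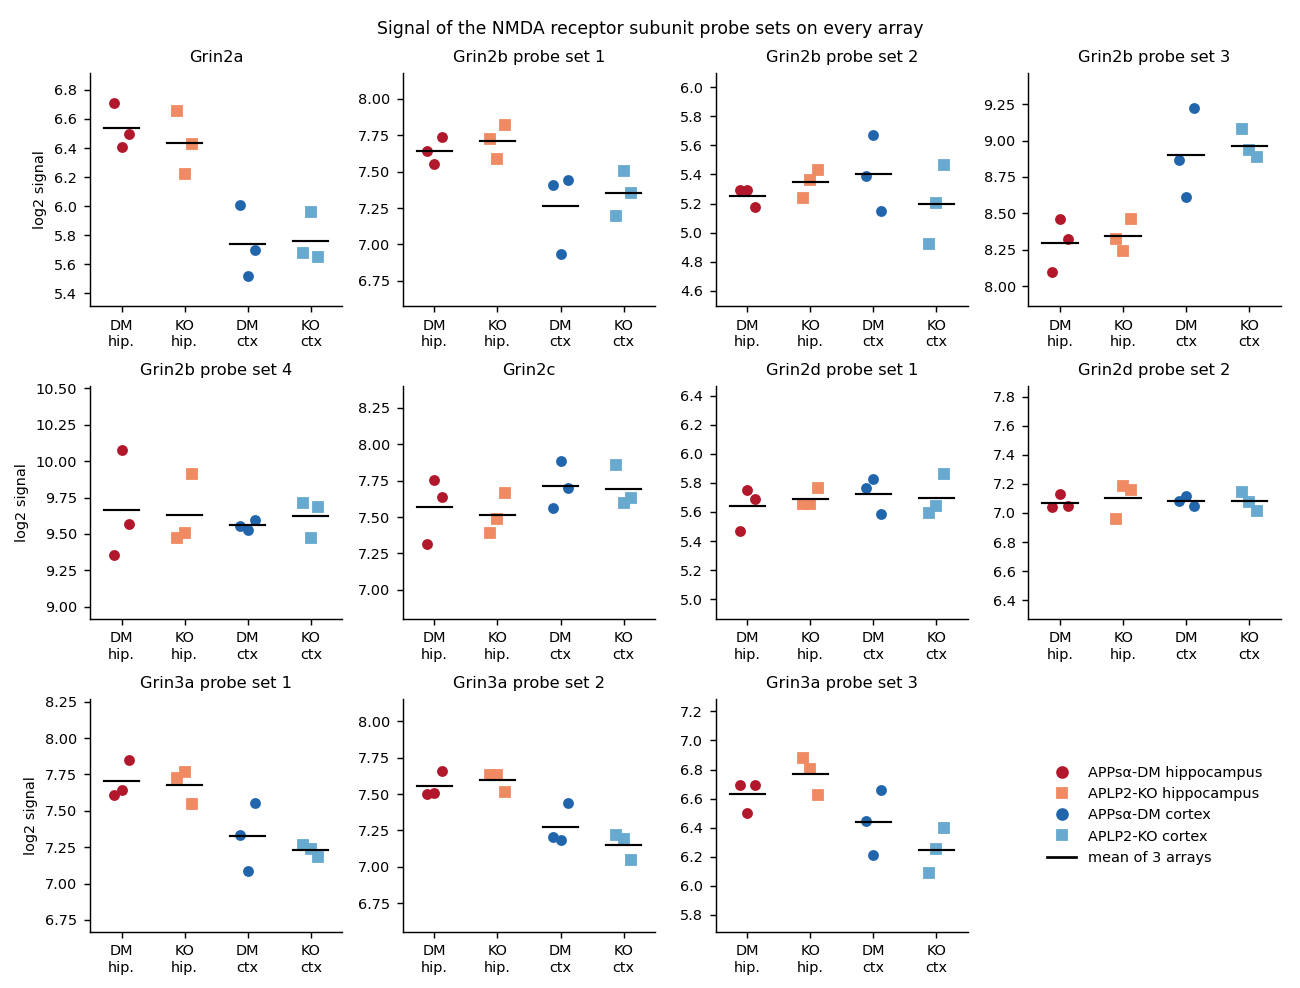
Log2 signal (vertical axis, 1.6 log2 units in every panel) of the 11 subunit probe sets on the 12 arrays, with a panel for each probe set. From left to right the groups are APPsα-DM hippocampus (DM hip.), APLP2-KO hippocampus (KO hip.), APPsα-DM cortex (DM ctx) and APLP2-KO cortex (KO ctx); points are arrays and black lines are means of 3. Grin2a is higher in hippocampus, as are the means of the Grin3a probe sets (with overlap for probe set 3 in APPsα-DM), Grin2b probe set 3 is lower there, and no panel separates the genotypes within a tissue.

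Subunit expression differed between the tissues and not detectably between the genotypes. Grin2a was higher in hippocampus than in cortex in both genotypes. Of the 3 Grin3a probe sets, 1 was higher in APPsα-DM and all 3 in APLP2-KO, and 1 of the 4 Grin2b probe sets was lower in both genotypes. Grin2c and Grin2d did not pass the threshold, an adjusted p of 0.05 in limma over all 45037 probe sets. In APPsα-DM, 3 of the 11 probe sets passed between the tissues, 2 higher and 1 lower, where 10.6% of all probe sets did (5.21% higher and 5.42% lower). In APLP2-KO 5 passed, 4 higher and 1 lower, where 12.6% of all did (5.62% higher and 6.98% lower). The median difference of the 11 was 0.11 in APPsα-DM and 0.15 in APLP2-KO, beside medians over all probe sets of -0.01 in APPsα-DM and 0.01 in APLP2-KO. The 11 are not independent, since probe sets of a gene read the same locus.

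Grin2a, which encodes the GluN2A subunit of mature synapses, had the largest tissue difference of the 11 in both genotypes. In APPsα-DM it read 6.71, 6.41 and 6.50 on hippocampus arrays 1, 2 and 3, against 6.01, 5.52 and 5.70 on cortex arrays 1, 2 and 3. The APLP2-KO arrays read 6.65, 6.22 and 6.43 in hippocampus, against 5.68, 5.96 and 5.65 in cortex. All 6 hippocampus arrays were above all 6 cortex arrays. The rise in hippocampus was 0.80 ± 0.14 (moderated SE) or 1.74-fold in APPsα-DM (adjusted p = 0.00273) and 0.67 ± 0.14 or 1.59-fold in APLP2-KO (adjusted p = 0.00726). In the order of group means, APPsα-DM hippocampus (6.54 ± 0.16, SD, n = 3) and APLP2-KO hippocampus (6.43 ± 0.22) overlapped, as did APLP2-KO cortex (5.76 ± 0.17) and APPsα-DM cortex (5.74 ± 0.25). Both differences passed under each of the 14 other settings run for them, with adjusted p up to 0.0199 in APPsα-DM and 0.0333 in APLP2-KO.

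The probe sets of Grin2b, whose product GluN2B binds the kinase CaMKII at synapses, went in different directions between the tissues. Probe set 3 was lower in hippocampus, probe set 1 lay above 0 without passing, and probe sets 2 and 4 did not separate the tissues. Probe set 3 read 8.10, 8.46 and 8.33 in APPsα-DM hippocampus, against 8.87, 8.61 and 9.23 in APPsα-DM cortex. The APLP2-KO values were 8.32, 8.24 and 8.46 in hippocampus, against 9.08, 8.94 and 8.89 in cortex. Every hippocampus array was below every cortex array, and the genotypes overlapped within each tissue. Probe set 3 fell by 0.61 ± 0.14 log2 units in APPsα-DM (1.52-fold lower, adjusted p = 0.0129) and by 0.62 ± 0.14 in APLP2-KO (1.54-fold lower, adjusted p = 0.00946). In APPsα-DM the adjusted p was 0.0565 without hippocampus array 1, where the difference was -0.51, and 0.0567 when only the 6 APPsα-DM arrays were fitted.

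Grin2b probe set 1 showed the opposite order of the tissues on the same arrays. It read 7.65, 7.55 and 7.74 in APPsα-DM hippocampus, against 7.41, 6.93 and 7.44 in APPsα-DM cortex. In APLP2-KO the values were 7.73, 7.59 and 7.82 in hippocampus, against 7.20, 7.51 and 7.35 in cortex. The arrays of the tissues did not overlap in either genotype, but the difference did not pass in either: 0.38 ± 0.13 in APPsα-DM (adjusted p = 0.0836) and 0.36 ± 0.13 in APLP2-KO (adjusted p = 0.0965). Over all probe sets, 27.4% had no overlap between the tissues in APPsα-DM and 30.2% in APLP2-KO, as did 5 of the 11 subunit probe sets in APPsα-DM and 6 in APLP2-KO. Within each array, probe set 3 minus probe set 1 was 0.65 ± 0.23 in APPsα-DM hippocampus and 1.64 ± 0.17 in APPsα-DM cortex, and 0.63 ± 0.03 in APLP2-KO hippocampus and 1.61 ± 0.24 in APLP2-KO cortex (SD, n = 3 each). Only its change between arrays has a meaning, and the ranges of the tissues did not overlap (0.45 to 0.91 in hippocampus, 1.43 to 1.88 in cortex). Which transcripts of Grin2b each probe set reads was not analysed here, and a test of the difference between the probe sets was not run.

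The brightest Grin2b probe set, number 4, did not separate the tissues. It read 9.36, 10.08 and 9.57 in APPsα-DM hippocampus, against 9.55, 9.52 and 9.60 in APPsα-DM cortex, and differed by 0.11 (95% confidence interval -0.24 to 0.46). In APLP2-KO it read 9.48, 9.51 and 9.91 in hippocampus, against 9.71, 9.47 and 9.68 in cortex, and differed by 0.01 (-0.35 to 0.36). APPsα-DM hippocampus 2 and APLP2-KO hippocampus 3 were its highest arrays. The dim probe set 2 differed by -0.15 in APPsα-DM (adjusted p = 0.587) and by 0.15 in APLP2-KO (adjusted p = 0.583). Averaged over its 4 probe sets, Grin2b differed by -0.07 ± 0.08 in APPsα-DM (adjusted p = 0.658) and by -0.03 ± 0.08 in APLP2-KO (adjusted p = 0.869).

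**Figure D2:**
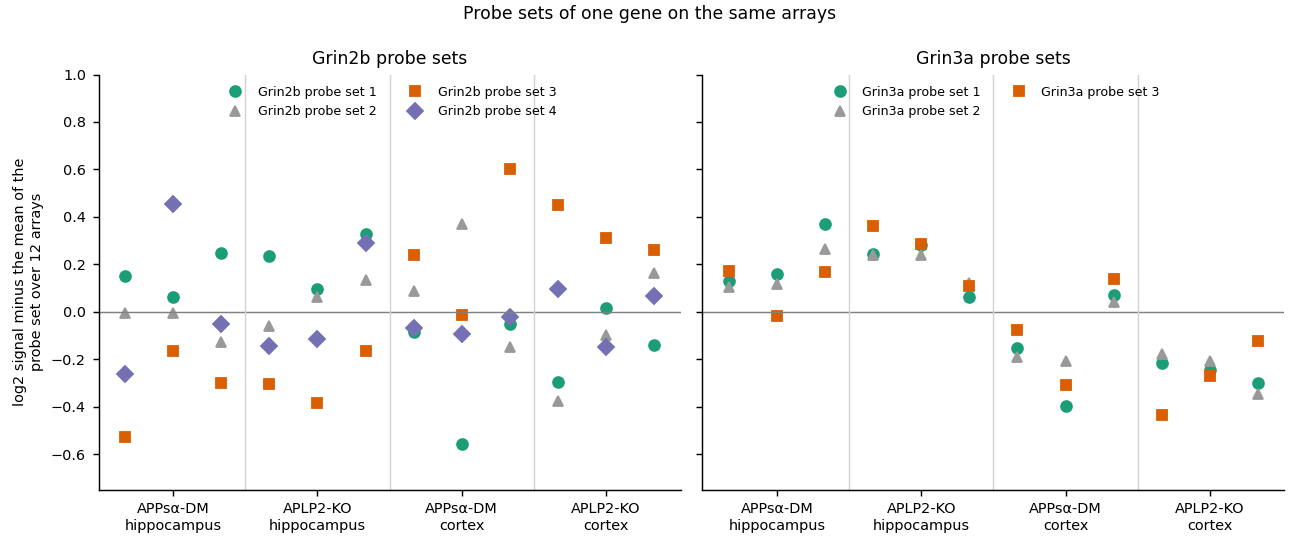
Log2 signal of each probe set of Grin2b (left) and Grin3a (right) minus its own mean over the 12 arrays (vertical axis), by array, with groups side by side along the horizontal axis and arrays 1 to 3 in order within a group. The Grin3a probe sets move together, with group means higher in hippocampus than in cortex, although on APPsα-DM cortex 3 each lies above its mean. Grin2b probe set 3 is low in hippocampus, where Grin2b probe set 1 is high.

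Grin3a, which encodes the glycine-binding GluN3A subunit, was higher in hippocampus with all 3 probe sets in APLP2-KO and with 1 of 3 in APPsα-DM, and its probe sets followed each other across arrays. Over the 12 arrays they correlated at r = 0.84 to 0.96, and after subtracting group means at r = 0.43 to 0.88. These correlations describe arrays that share tissue and genotype. For comparison, the pairs of Grin2b probe sets ran from -0.54 to 0.13 over the 12 arrays and from -0.67 to 0.58 after subtracting group means. Probe sets 1 and 3 of Grin2b stood at -0.54 over the 12 arrays and at 0.50 after subtracting group means. The Grin2d pair stood at 0.12 over the 12 arrays and at 0.10 after subtracting group means.

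Grin3a probe set 1 read 7.61, 7.64 and 7.85 in APPsα-DM hippocampus, against 7.33, 7.09 and 7.55 in APPsα-DM cortex. Hippocampus arrays of APLP2-KO read 7.73, 7.76 and 7.55, against 7.27, 7.24 and 7.18 on APLP2-KO cortex arrays. The tissues did not overlap within a genotype, although APLP2-KO hippocampus 3 and APPsα-DM cortex 3 both stood at 7.55. The rise was 0.38 ± 0.11 or 1.30-fold in APPsα-DM (adjusted p = 0.0472) and 0.45 ± 0.11 or 1.37-fold in APLP2-KO (adjusted p = 0.0174). In APPsα-DM it kept an adjusted p under the threshold in 6 of 14 other settings, over which the difference ran from 0.26 to 0.49 and the adjusted p from 0.0115 to 0.194. It was lost without hippocampus array 1 (0.0621), 2 (0.0716) or 3 (0.184) and without cortex array 1 (0.107) or 2 (0.165). Median centring of the arrays also removed it (0.0584), as did fitting only the APPsα-DM arrays (0.123). Leaving out the cortex arrays highest in Ttr did so too (0.194). In APLP2-KO it was lost without hippocampus array 1 (0.0559) or 2 (0.0736) and without cortex array 3 (0.0598).

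Grin3a probe set 2 read 7.50, 7.51 and 7.66 in APPsα-DM hippocampus, against 7.21, 7.19 and 7.44 in APPsα-DM cortex. In APLP2-KO it read 7.63, 7.63 and 7.52 in hippocampus, against 7.22, 7.19 and 7.05 in cortex. The arrays of the 2 tissues were apart in both genotypes. It rose by 0.44 ± 0.08 or 1.36-fold in APLP2-KO (adjusted p = 0.00356), while in APPsα-DM the difference of 0.28 ± 0.08 missed the threshold (adjusted p = 0.0546) and passed in 5 of 14 other settings (0.0184 without cortex array 3).

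Grin3a probe set 3 read 6.69, 6.50 and 6.69 in APPsα-DM hippocampus, against 6.44, 6.21 and 6.66 in APPsα-DM cortex, where the ranges overlapped. In APLP2-KO it read 6.88, 6.81 and 6.63 in hippocampus, against 6.09, 6.25 and 6.40 in cortex, with no overlap. It rose by 0.53 ± 0.12 or 1.44-fold in APLP2-KO (adjusted p = 0.0102) and differed by 0.19 ± 0.12 in APPsα-DM (adjusted p = 0.377). The tissue difference in APPsα-DM minus that in APLP2-KO was -0.34 ± 0.17 for probe set 3 (unadjusted p = 0.0668, adjusted p = 1.00), so the genotypes were not shown to differ in it. Without APPsα-DM cortex 2 and APLP2-KO cortex 3, the cortex arrays high in Ttr, it was -0.52 ± 0.15 (unadjusted p = 0.00648, adjusted p = 0.996). That was the most negative of the 19 other settings, over which it ran from -0.52 to -0.23 and never passed. With all 12 arrays the same quantity was -0.07 for probe set 1 and -0.16 for probe set 2.

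Grin2c, best known from cerebellar granule cells and also found in astrocytes, did not pass between the tissues. It read 7.32, 7.76 and 7.64 in APPsα-DM hippocampus, against 7.56, 7.88 and 7.70 in APPsα-DM cortex. In APLP2-KO it read 7.39, 7.48 and 7.67 in hippocampus, against 7.86, 7.59 and 7.63 in cortex. The ranges overlapped in both genotypes, with differences of -0.14 (95% confidence interval -0.42 to 0.13) in APPsα-DM and -0.18 (-0.46 to 0.09) in APLP2-KO. On the same arrays Gfap, the intermediate filament gene of astrocytes, rose in hippocampus by 1.38 ± 0.11 in APPsα-DM (adjusted p = 6.35e-06) and 1.18 ± 0.11 in APLP2-KO (adjusted p = 1.94e-05). Of the 8 astrocyte markers, 3 rose and 1 fell in hippocampus in each genotype. By the brightest probe set of each gene, 6.59% of all genes rose and 7.34% fell in APPsα-DM, and 6.78% rose and 9.7% fell in APLP2-KO.

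Grin2d, whose product is found in many GABAergic interneurons, was the flattest of the subunit genes. Probe set 2 read 7.04, 7.13 and 7.05 in APPsα-DM hippocampus, against 7.09, 7.12 and 7.05 in APPsα-DM cortex. For APLP2-KO the values were 6.96, 7.19 and 7.16 in hippocampus, against 7.15, 7.07 and 7.02 in cortex. The groups overlapped throughout, and the confidence intervals of the tissue difference were -0.17 to 0.15 in APPsα-DM and -0.14 to 0.18 in APLP2-KO. Probe set 1 differed by -0.09 (-0.30 to 0.13) in APPsα-DM and by -0.01 (-0.22 to 0.20) in APLP2-KO. Of 8 interneuron markers, 4 fell in hippocampus in each genotype and none rose past the threshold. The share of all genes that fell was 7.34% in APPsα-DM and 9.7% in APLP2-KO. The difference of Pvalb, which encodes a calcium buffer of fast-spiking interneurons, was -0.73 ± 0.11 in APPsα-DM (adjusted p = 0.00106) and -0.94 ± 0.11 in APLP2-KO (adjusted p = 0.000123). Sst, the gene of somatostatin, differed by 0.07 in APPsα-DM and 0.13 in APLP2-KO and did not pass.

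**Figure D3:**
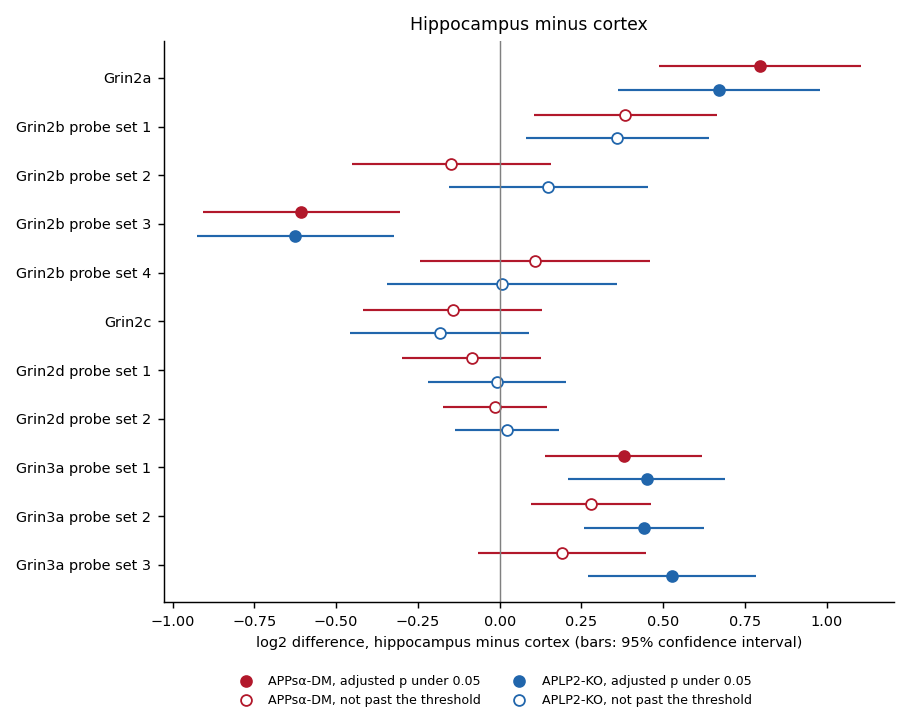
Log2 difference, hippocampus minus cortex (horizontal axis), of each subunit probe set in APPsα-DM (red, upper) and APLP2-KO (blue, lower), with 95% confidence intervals; filled points passed the threshold in limma. Grin2a lies highest at 0.80 and 0.67, Grin2b probe set 3 lowest at -0.61 and -0.62, and both Grin2d probe sets lie near 0.

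Marker signals also differed between the tissues beside these results. The mean of 8 pan-neuronal markers was 11.911 to 11.997 in APPsα-DM hippocampus against 12.05 to 12.17 in APPsα-DM cortex, and 11.95 to 11.98 in APLP2-KO hippocampus against 12.13 to 12.23 in APLP2-KO cortex. Of these markers 1 fell in hippocampus in APPsα-DM and 2 in APLP2-KO, where 7.34% of all genes fell in APPsα-DM and 9.7% in APLP2-KO. All 7 striatal markers were lower in hippocampus in both genotypes, with medians of -2.32 in APPsα-DM and -2.50 in APLP2-KO. Drd1, a dopamine receptor gene of striatal neurons, changed by -2.22 ± 0.14 in APPsα-DM (adjusted p = 9.01e-07) and -2.53 ± 0.14 in APLP2-KO (adjusted p = 2.89e-07). When APPsα-DM cortex 2 and APLP2-KO cortex 3 were left out, the calls of Grin2a and Grin2b probe set 3 held in both genotypes, and the Grin3a probe set 1 difference in APPsα-DM was 0.26 (adjusted p = 0.194). Only cortex arrays were chosen by Ttr, which stood at 10.6 to 14.4 on the hippocampus arrays. On the cortex arrays kept, the striatal markers still averaged 9.56 to 10.13. These fits therefore do not even out neighbouring tissue between the groups, and its part was not tested.

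Setting APPsα-DM against APLP2-KO asks what replacing unedited App by the APPα allele does where APLP2 is missing. None of the 11 subunit probe sets passed in limma in hippocampus, in cortex or in the average of both, and 0 of 11 had an unadjusted p under 0.05 in any of these. The background was as thin: 4 of 45037 probe sets (0.00888%) passed in hippocampus, 0.00222% higher and 0.00666% lower, and the shares were the same in cortex and in the average. In hippocampus 4 of the 11 differences were above 0, with a median of -0.04, beside 0.00 over all probe sets. In cortex 7 were above 0, with a median of 0.02, beside 0.00 over all. No subunit probe set had the arrays of the genotypes apart in either tissue. Over all probe sets 9.88% did in hippocampus and 8.73% in cortex, so 0 of 11 is near the background.

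The intervals bound what could have gone unseen. Grin2a differed by 0.10 ± 0.14 in hippocampus (95% confidence interval -0.21 to 0.41) and by -0.02 ± 0.14 in cortex (-0.33 to 0.29). It lies like App on chromosome 16. Grin2b probe set 4 differed by 0.04 (-0.31 to 0.39) in hippocampus and by -0.07 (-0.42 to 0.29) in cortex, and probe set 3 by -0.05 and -0.06. The largest differences were those of Grin2b probe set 2 in cortex (0.21 ± 0.14, unadjusted p = 0.165), Grin3a probe set 3 in cortex (0.19 ± 0.12, unadjusted p = 0.128) and Grin3a probe set 3 in hippocampus (-0.14 ± 0.12, unadjusted p = 0.249).

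Across the 11 probe sets the intervals stayed within 0.758-fold and 1.33-fold in hippocampus and within 0.748-fold and 1.43-fold in cortex. For the average over both tissues, with 3 means against 3, the bounds were 0.818-fold and 1.24-fold. Each mean joined the tissues of a replicate number, and the labels do not say whether these share a mouse. The averaged differences themselves ran from -0.08 (Grin2b probe set 1) to 0.06 (Grin3a probe set 1). These bounds are the widest of the 11, and the narrowest interval in cortex, that of Grin2d probe set 2, ran from 0.899-fold to 1.12-fold. The genotype effect did not differ detectably between hippocampus and cortex for any of the 11, with 0 at an unadjusted p under 0.05, where 0 of 45037 probe sets (0%) passed.

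**Figure D4:**
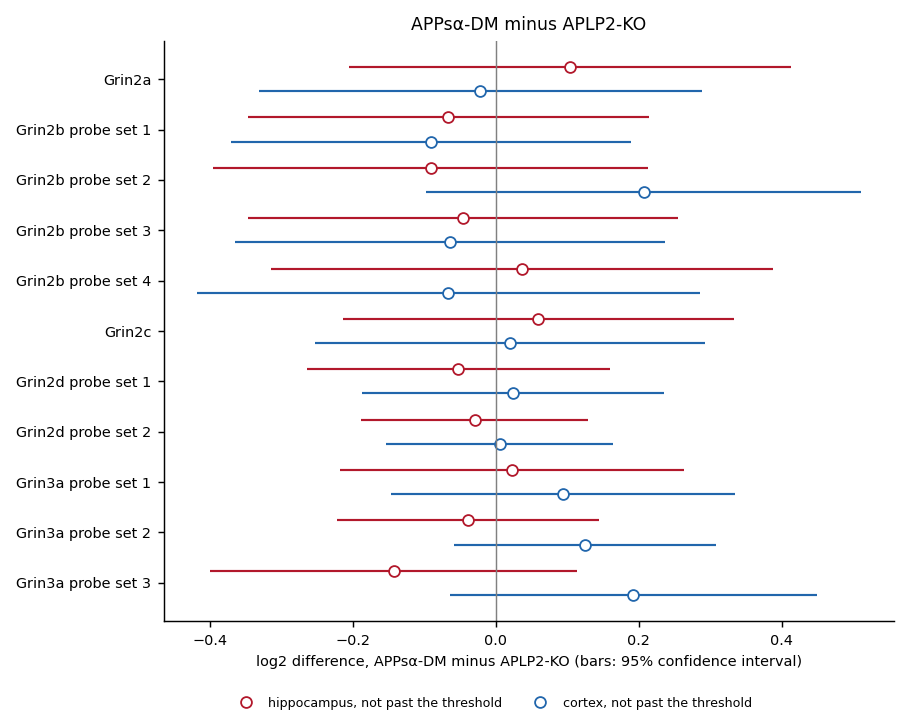
Log2 difference, APPsα-DM minus APLP2-KO (horizontal axis), of each subunit probe set in hippocampus (red, upper) and cortex (blue, lower), with 95% confidence intervals. Every interval includes 0 and no probe set passed the threshold.

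Genes that act with NMDA receptors had the same split between tissue and genotype. Of 71 such genes in 7 lists, 62 had a probe set with a single gene, and 0 of 62 passed between the genotypes in hippocampus, in cortex or on average. In cortex the smallest unadjusted p was that of Dlg4, which encodes the scaffold PSD-95 that anchors GluN2 subunits, at -0.48 ± 0.12 (unadjusted p = 0.00226, adjusted p = 1.00). In hippocampus it was that of Grin3b, the gene of the GluN3B subunit, at 0.25 ± 0.11 (unadjusted p = 0.0487, adjusted p = 1.00). Between the tissues 12 of the 62 were higher and 12 lower in hippocampus in APPsα-DM, and 12 were higher and 16 lower in APLP2-KO. Taking the brightest probe set of each of 18193 genes in the same way, 13.9% passed in APPsα-DM (6.59% higher and 7.34% lower) and 16.5% in APLP2-KO (6.78% higher and 9.7% lower).

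Of 11 measured receptor scaffolds, 5 fell in hippocampus in APPsα-DM (against 7.34% of all genes) and 6 in APLP2-KO (against 9.7%), and none rose past the threshold. Their median difference was -0.46 in APPsα-DM and -0.44 in APLP2-KO, beside medians over all probe sets of -0.01 in APPsα-DM and 0.01 in APLP2-KO. Dlg2, the gene of the scaffold PSD-93, changed by -1.07 ± 0.11 in APPsα-DM (adjusted p = 4.92e-05) and -1.11 ± 0.11 in APLP2-KO (adjusted p = 2.95e-05). Dlg4 changed by -0.69 ± 0.12 in APPsα-DM (adjusted p = 0.00274) and -1.09 ± 0.12 in APLP2-KO (adjusted p = 7.72e-05). Homer1, which links receptor complexes to internal calcium stores, changed by -0.74 ± 0.08 in APPsα-DM and -0.60 ± 0.08 in APLP2-KO, and Dlg1, the gene of SAP97, by -0.62 ± 0.07 in APPsα-DM and -0.65 ± 0.07 in APLP2-KO. Among trafficking genes, 4 of 10 fell and 2 rose in APPsα-DM (median -0.17), and 6 fell and 2 rose in APLP2-KO (median -0.24). Over all genes 7.34% fell and 6.59% rose in APPsα-DM, and 9.7% fell and 6.78% rose in APLP2-KO. The adaptors Cask and Lin7a, which join receptors to a kinesin motor, both fell: Cask changed by -0.43 in APPsα-DM and -0.45 in APLP2-KO, and Lin7a by -0.38 in APPsα-DM and -0.46 in APLP2-KO. Lin7c, a relative of Lin7a, rose by 0.63 in APPsα-DM and 0.59 in APLP2-KO.

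Of 13 kinases and phosphatases, 3 rose and 2 fell in hippocampus in each genotype, where 13.9% of all genes passed in either direction in APPsα-DM and 16.5% in APLP2-KO. Ptpn5, which encodes the phosphatase STEP that dephosphorylates GluN2B, changed by -0.72 ± 0.10 in APPsα-DM (adjusted p = 0.000307) and -0.93 ± 0.10 in APLP2-KO (adjusted p = 3.51e-05). Camk2a, the alpha subunit of CaMKII, changed by -0.73 in APPsα-DM and -0.87 in APLP2-KO, while Camk2b, the beta subunit, rose by 0.43 in APPsα-DM and 0.38 in APLP2-KO. Ptk2b, a kinase upstream of Src, rose by 0.68 in APPsα-DM and 0.58 in APLP2-KO. Of 9 genes of downstream signalling, 4 rose and 1 fell in APPsα-DM (median 0.24), and 5 rose and 2 fell in APLP2-KO (median 0.28), beside 6.59% of all genes higher and 7.34% lower in APPsα-DM and 6.78% higher and 9.7% lower in APLP2-KO. Nos1, the neuronal nitric oxide synthase tethered to receptors by PSD-95, was higher by 0.82 ± 0.12 in APPsα-DM (adjusted p = 0.000572) and 1.17 ± 0.12 in APLP2-KO (adjusted p = 3.01e-05). Rasgrf1, an exchange factor that activates Ras on calcium entry, rose by 0.72 in APPsα-DM and 0.68 in APLP2-KO, while its relative Rasgrf2 changed by -0.54 in APPsα-DM and -0.55 in APLP2-KO. Tiam1, an exchange factor for Rac, rose by 0.53 in APPsα-DM and 0.51 in APLP2-KO.

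Of 12 genes of co-agonist supply, 1 rose in each genotype and none fell past the threshold, a share near that of all genes (6.59% higher in APPsα-DM and 6.78% in APLP2-KO). The gene was Gldc, which encodes a glycine-degrading enzyme, at 0.43 ± 0.07 in APPsα-DM (adjusted p = 0.00172) and 0.63 ± 0.07 in APLP2-KO (adjusted p = 7.15e-05). Srr, which makes D-serine, differed by 0.12 in APPsα-DM and 0.18 in APLP2-KO and did not pass. In glutamate uptake and supply, 2 of 6 rose in APPsα-DM and 1 of 6 in APLP2-KO against the same background, with Slc1a1, a neuronal glutamate transporter, higher by 0.52 ± 0.07 in APPsα-DM and 0.46 ± 0.07 in APLP2-KO. Grin3b did not pass in either genotype and averaged 4.92 over the 12 arrays.

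**Figure D5:**
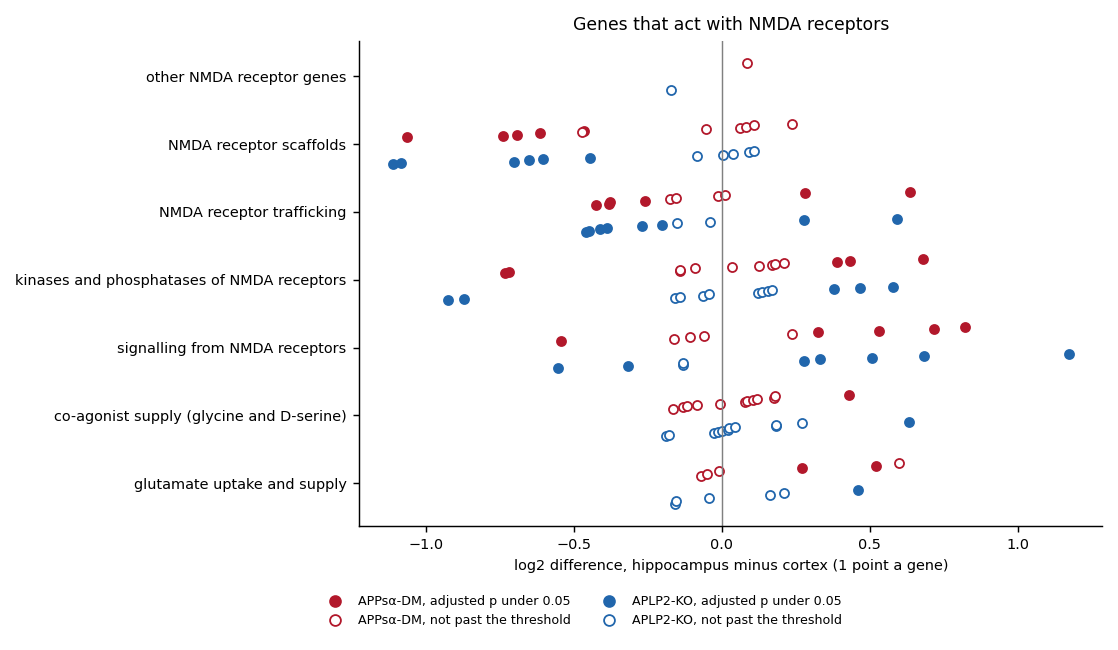
Log2 difference, hippocampus minus cortex (horizontal axis), of genes that act with NMDA receptors, by list (vertical axis), in APPsα-DM (red, upper) and APLP2-KO (blue, lower). Each point is the brightest probe set of a gene and filled points passed the threshold; scaffolds reach -1.07 and -1.11 (Dlg2), and Nos1 reaches 0.82 and 1.17.

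Genes whose signal ran most like each subunit over the 12 arrays were named by the highest Pearson r among 30856 probe sets above the Y-linked level. For Grin2a these were Fam13c (r = 0.97), the ephrin receptor gene Epha4 (r = 0.97) and Mipep (r = 0.97). Fam13c rose in hippocampus by 0.83 in APPsα-DM and 0.74 in APLP2-KO, and Epha4 by 1.08 in APPsα-DM and 1.13 in APLP2-KO. Mipep rose by 0.27 in APPsα-DM and differed by 0.21 in APLP2-KO, where it did not pass in limma (adjusted p = 0.0665). For Grin3a probe set 1 they were Angpt1 (r = 0.96), the cannabinoid receptor gene Cnr1 (r = 0.96) and Nexmif (r = 0.95). Angpt1 and Nexmif passed between the tissues in both genotypes. Cnr1 rose by 0.35 in APLP2-KO and differed by 0.20 in APPsα-DM, where it did not pass in limma (adjusted p = 0.252). Tissue is shared by all these points, and after subtracting group means r was 0.83 to 0.85 for the genes near Grin2a and 0.85 to 0.91 for those near Grin3a.

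Grin2b probe set 4, Grin2c and Grin2d probe set 2 did not pass between the tissues. Their nearest genes were picked by r over the same 12 arrays, so a high r within groups was largely set by the choice. Grin2b probe set 4 ran with Hnrnpul2 (r = 0.94), Nlgn3, a postsynaptic adhesion gene (r = 0.93), and Bcl9l (r = 0.92), at r = 0.92 to 0.98 after subtracting group means. Grin2c ran with Noc2l (r = 0.95), Brd8 (r = 0.95) and Tfpt (r = 0.93), and Grin2d probe set 2 with Itch (r = 0.86), Pkd1 (r = 0.83) and Usp4 (r = 0.82). None of these 9 passed between the tissues in either genotype, which the choice also made likely and which is no separate result. Each r is the highest of many over 12 arrays and describes these arrays only.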

How the data were processed

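The submitters' processing notes name RMA and affy, with versions not given in the sources used here. The deposited values were log2 signals, 1 array per sample; a joint normalisation of the arrays is not stated. Genes came from the platform annotation (34945 probe sets with 1 symbol, 932 with several, 9160 with none), chromosomes from the RefSeq gene table of GRCm38.p6, and 64 control probe sets were left out. The remaining 45037 were tested unfiltered in R 4.3.3 with limma 3.58.1: lmFit on the means of 4 groups over 12 arrays, contrasts, eBayes, two-sided p-values and Benjamini-Hochberg adjustment over all probe sets. The averaged genotype effect was fitted on the mean of both tissues per genotype and replicate number. Precision is set by the 3 arrays a group: a difference had a median SE of 0.126 over the 11 subunit probe sets and 0.0938 over all. The p-values measure the spread between these arrays. The main fit took the 12 arrays as independent, although the series design has 3 mice of each genotype for both tissues. Any sharing of a mouse between tissues is thus not taken into account in the p-values of the tissue differences. The same holds for the difference of the genotype effect between tissues. The code was tested on simulated data.

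All subunit probe sets were reported. In the other lists the brightest probe set stood for a gene, and up to 4 genes per list with the largest tissue differences past the threshold in both genotypes could be named. Dlg4 and Grin3b (for genotype), Camk2b, Srr and the marker genes were named after their values were seen. Members and lists were chosen with earlier results of these data known. Alternatives were other normalisations, variance priors, array weights, a filter on dim probe sets, gene means, a replicate block and leaving out arrays. Deviations from group means correlated between the tissues of a replicate number at 0.02 to 0.08 in APPsα-DM and 0.11 to 0.16 in APLP2-KO, and between genotypes at -0.25 to 0.21. The labels do not say which arrays share a mouse. Arrays of different genotypes cannot share a mouse and still reached 0.21, so these correlations cannot tell whether the numbers pair the tissues. In APLP2-KO the block changed no call of a subunit probe set.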

Additional observations from a re-analysis of the deposited data

How the results depend on the processing

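No genotype difference of the 11 subunit probe sets passed under any setting (smallest adjusted p = 0.479). The difference of the genotype effect between hippocampus and cortex did not pass either (smallest adjusted p = 0.701). Of 660 such values 80 changed sign, all not past the threshold. Hippocampus minus cortex kept the direction of every called value. In APPsα-DM, 3 probe sets passed, and 1 passed with only the arrays compared (Grin2b probe set 3 and Grin3a probe set 1 were lost). Without single arrays 1 to 4 passed, the lowest without hippocampus array 1. With gene means 1 gene passed in APPsα-DM (Grin2a) and 2 in APLP2-KO (Grin2a and Grin3a), where 5 probe sets passed: Grin3a then counts once, and Grin2b, whose probe set 3 passed alone, had an adjusted p of 0.869 as a mean of 4; Grin3a in APPsα-DM had an adjusted p of 0.0540. With the replicate number as a block, 4 passed in APPsα-DM (Grin3a probe set 2 added, adjusted p = 0.0296), 5 in APLP2-KO and 0 between genotypes. Whether samples of a number share a mouse is not known for either genotype. Leave-one-out fits assume that the 2 arrays left vary like the other groups.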
